A study of Homo sapiens with 12 samples.

Results

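The 10 genes described here, ERBB3, LAPTM5, APOE, CORO1A, SYNGR1, EFNA1, CD24, SPINT1, TRANK1 and PAQR8, were chosen by their fold changes: large ones after alpha-ketobutyrate that pyruvate largely lacks. They are 10 of the 17786 gene identifiers in the count table, and all 10 were among the 13598 that passed the filter on low counts. Most encode proteins of the cell surface, of the secretory and lysosomal membranes or of leukocyte signalling. Because their own values in all 3 comparisons chose them, their levels are given as a description, without a test.

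K562, a suspension cell line from chronic myelogenous leukaemia, was studied in 3 groups of 4 libraries. Cells received 2 mM alpha-ketobutyrate (AKB) for 24 h, 2 mM pyruvate for 24 h, or no addition, and all were grown in the same serum-containing medium. Pyruvate is a glycolytic 2-oxo acid and AKB its homologue, longer by a methylene group; either can oxidise NADH through lactate dehydrogenase and thereby accept electrons for the cell. Whether replicates were grown as separate cultures is not stated, and the p-values then reflect library-to-library spread alone, which may be technical. Levels are given as CPM, read counts scaled to a common library size. In bulk RNA, more cells with a transcript and more transcript per cell cannot be told apart.

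As background, ERBB3 is a relative of the EGF receptor that binds neuregulins and, having little kinase activity of its own, signals in pairs with relatives such as ERBB2. EFNA1 is an ephrin, a lipid-anchored surface ligand of Eph receptors, and CD24 is a small lipid-anchored sialoglycoprotein that binds P-selectin and Siglec-10. LAPTM5 and CORO1A are known chiefly from blood cells, where the first sits in lysosomal membranes and binds NEDD4 family ubiquitin ligases, and the second is an actin-binding coronin. FOXO factors induce ERBB3 in several cell types, and liver X receptors induce APOE in macrophages.

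The genes lay on 8 chromosomes. In the annotation (GENCODE 29 on GRCh38) LAPTM5 (chr1:30732469-30757820, minus strand) and EFNA1 (chr1:155127460-155134857, plus strand) share a chromosome far apart, as do CD24 (chr6:106969831-106975627, minus strand) and PAQR8 (chr6:52361421-52407777, plus strand). ERBB3 is at chr12:56076799-56103505, APOE at chr19:44905754-44909393, CORO1A at chr16:30182827-30189076, SYNGR1 at chr22:39349925-39385588 and SPINT1 at chr15:40844018-40858207, all on the plus strand, and TRANK1 is at chr3:36826820-36945098 on the minus strand. RefSeq promoter windows (GRCh38.p14) matched 8 of the 10 genes, all but ERBB3 and PAQR8. The windows of 4 are shown, a lysosomal, a secreted and 2 surface proteins whose windows reach outside the annotated gene, with matches of the GC box, of the ETS motif AGGAAGT and of the other motifs searched in capitals. Each runs 5′ to 3′ on the gene's strand and ends where the annotated gene begins, at chr1:30757821-30758024 for LAPTM5, chr19:44905546-44905753 for APOE, chr6:106975628-106975877 for CD24 and chr15:40843798-40844017 for SPINT1.
LAPTM5: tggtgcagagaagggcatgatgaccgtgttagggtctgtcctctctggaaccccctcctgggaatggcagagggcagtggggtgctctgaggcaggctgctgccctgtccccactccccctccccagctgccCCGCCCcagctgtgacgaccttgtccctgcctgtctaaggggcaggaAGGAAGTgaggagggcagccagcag
APOE: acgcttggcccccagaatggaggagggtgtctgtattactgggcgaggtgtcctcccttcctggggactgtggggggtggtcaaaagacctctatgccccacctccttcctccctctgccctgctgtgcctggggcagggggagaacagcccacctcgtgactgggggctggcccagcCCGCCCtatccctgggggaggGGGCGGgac
CD24: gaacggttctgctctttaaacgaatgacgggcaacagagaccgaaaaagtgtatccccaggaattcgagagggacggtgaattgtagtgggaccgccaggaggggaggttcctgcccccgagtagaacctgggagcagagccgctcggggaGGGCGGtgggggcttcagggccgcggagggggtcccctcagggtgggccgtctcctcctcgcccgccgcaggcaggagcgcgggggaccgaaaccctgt
SPINT1: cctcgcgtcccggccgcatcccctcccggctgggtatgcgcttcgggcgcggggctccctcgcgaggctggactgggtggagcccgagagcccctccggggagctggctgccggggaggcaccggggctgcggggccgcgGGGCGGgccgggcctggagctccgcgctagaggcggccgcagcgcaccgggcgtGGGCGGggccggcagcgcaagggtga

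The 250 bases before the RefSeq start were searched on both strands for the GC box GGGCGG, the E-box CACGTG, the AP-1 site TGANTCA, the ATF4-CEBP element TGATGNAA, the forkhead site TGTTTAC, the GATA site AGATAA, the ETS site AGGAAGT and the CCAAT box. A GC box was found in 7 of the 8 windows, LAPTM5, APOE, CORO1A, SYNGR1, EFNA1, CD24 and SPINT1, and in 42.6% of all 35116 windows. EFNA1 held 5 of them, CORO1A and SPINT1 3 each. TRANK1 had an E-box as its only match (6.34% of all windows), LAPTM5 the ETS site (7.01%) and APOE a CCAAT box (32%). The forkhead, AP-1, ATF4-CEBP and GATA letters were in none of the 8, against 2.98%, 6.57%, 3.14% and 9.17% of all windows. The CCAAT box of APOE and 1 GC box of SPINT1 lie within the annotated gene, outside the stretches shown. The windows of EFNA1 and CORO1A lie wholly within the annotated gene, and so do all their GC boxes. The E-box of TRANK1 and 1 GC box of SYNGR1 also lie within the annotated gene. No matches of different motifs overlapped. The windows held 55.6% to 84.8% G and C, against a median of 58% over all windows.

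In each of the 10 genes, every AKB library stood above all 8 other libraries, as did 3.22% of all genes tested. This count follows from the choice of the genes. The lowest AKB library exceeded the highest of the others by 1.29-fold to 1.82-fold. The estimated log2 fold changes of AKB over untreated ran from 0.99 for PAQR8 to 1.61 for ERBB3, and those of AKB over pyruvate from 0.81 for APOE to 1.29 for PAQR8.

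**Figure D1:**
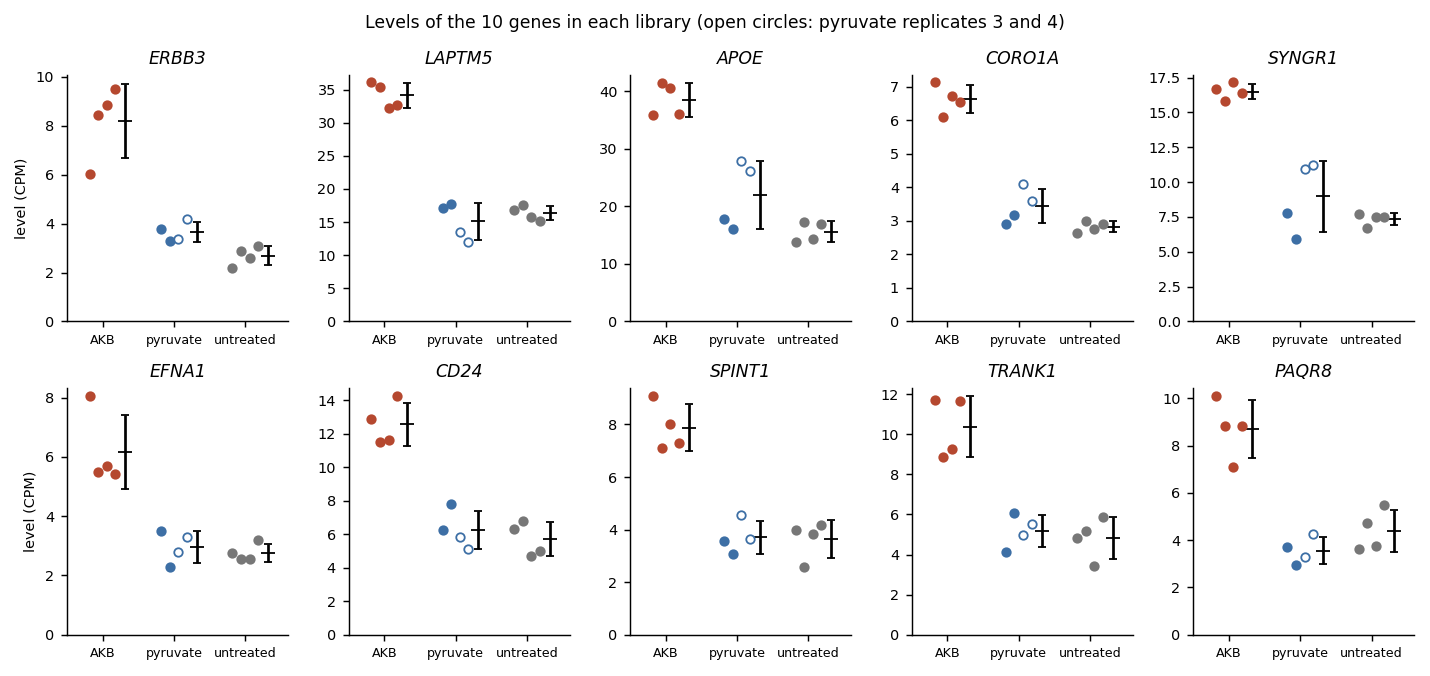
Level of each gene in CPM (vertical axis from 0) in the 4 libraries of the AKB, pyruvate and untreated groups, with the mean and SD of 4 libraries beside the points and pyruvate replicates 3 and 4 as open circles. Every AKB point lies above all others, and in APOE and SYNGR1 the open circles lie above the other pyruvate points.

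Among the receptors and ligands of the cell surface, ERBB3 showed the largest ratio of AKB over untreated. It stood at 6.04, 8.46, 8.84 and 9.51 CPM with AKB, at 3.79, 3.31, 3.38 and 4.2 CPM with pyruvate, and at 2.20, 2.88, 2.6 and 3.08 CPM in untreated cells. All 4 pyruvate libraries were also above all 4 untreated libraries, which was the case for no other of the 10 genes and for 4.88% of all genes tested. The means were 8.21 ± 1.51 CPM with AKB, 3.67 ± 0.41 CPM with pyruvate and 2.69 ± 0.377 CPM in untreated cells (SD, n = 4 each). The log2 fold change was 1.61 (SE 0.171) for AKB over untreated and 0.45 (SE 0.172) for pyruvate over untreated, so the difference with pyruvate was 17.7% of that with AKB on the CPM scale. None of the 10 genes was called for pyruvate over untreated, a count that the choice of the genes fixes in part.

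EFNA1 stood at 8.04, 5.50, 5.68 and 5.43 CPM with AKB, at 3.49, 2.28, 2.78 and 3.31 CPM with pyruvate, and at 2.76, 2.57, 2.55 and 3.20 CPM in untreated cells. The first AKB library was set well above the other 3, while the pyruvate and untreated libraries overlapped. Its log2 fold change was 1.15 (SE 0.182) for AKB over untreated and 1.05 (SE 0.181) for AKB over pyruvate.

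CD24 stood at 12.9, 11.5, 11.6 and 14.3 CPM with AKB, at 6.28, 7.82, 5.86 and 5.09 CPM with pyruvate, and at 6.34, 6.79, 4.72 and 5.01 CPM in untreated cells. The groups of pyruvate and untreated libraries covered nearly the same range. The log2 fold change was 1.13 (SE 0.161) for AKB over untreated and 1.01 (SE 0.16) for AKB over pyruvate. CD24 has near-identical pseudogene copies in the genome, so how the authors' counting divided reads among them is uncertain.

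SPINT1 encodes a transmembrane Kunitz-type inhibitor of the serine proteases matriptase and hepatocyte growth factor activator. It stood at 9.07, 7.10, 8.02 and 7.29 CPM with AKB, at 3.55, 3.07, 4.55 and 3.64 CPM with pyruvate, and at 3.97, 2.57, 3.85 and 4.16 CPM in untreated cells. With pyruvate its mean differed from untreated by 1.5% of the AKB difference. An antisense gene, SPINT1-AS1, overlaps its start, and without a stated strand setting reads of the pair cannot be told apart.

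PAQR8 encodes membrane progestin receptor beta. It stood at 10.1, 8.83, 7.09 and 8.83 CPM with AKB, at 3.73, 2.95, 3.28 and 4.25 CPM with pyruvate, and at 3.64, 4.71, 3.74 and 5.49 CPM in untreated cells. This was the gene of the 10 with the lowest estimate for pyruvate over untreated, a log2 fold change of −0.30 (SE 0.177, 95% interval −0.69 to 0.08).

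Of the genes known chiefly from leukocytes, LAPTM5 stood at 36.1, 35.5, 32.3 and 32.7 CPM with AKB, at 17.1, 17.7, 13.5 and 12.04 CPM with pyruvate, and at 16.8, 17.6, 15.7 and 15.2 CPM in untreated cells. Pyruvate replicates 3 and 4 were below all other libraries, and pyruvate replicates 1 and 2 were in the untreated range or just above it. CORO1A stood at 7.14, 6.11, 6.73 and 6.54 CPM with AKB, at 2.90, 3.19, 4.09 and 3.59 CPM with pyruvate, and at 2.65, 3.00, 2.77 and 2.90 CPM in untreated cells. Its libraries varied little within the AKB and untreated groups, with coefficients of variation of 6.4% and 5.45%. The log2 fold changes of AKB over untreated were 1.06 (SE 0.118) for LAPTM5 and 1.23 (SE 0.137) for CORO1A. An antisense gene overlaps CORO1A as well.

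APOE, the lipid carrier apolipoprotein E, stood at 35.9, 41.6, 40.5 and 36.0 CPM with AKB, at 17.8, 16.1, 27.9 and 26.2 CPM with pyruvate, and at 13.8, 17.3, 14.4 and 17.0 CPM in untreated cells. The pyruvate libraries fell into a pair near the untreated level and a pair well above it. SYNGR1, a membrane protein of synaptic-like vesicles, stood at 16.7, 15.8, 17.2 and 16.4 CPM with AKB, at 7.76, 5.95, 10.96 and 11.2 CPM with pyruvate, and at 7.72, 6.73, 7.48 and 7.48 CPM in untreated cells. The same pair of pyruvate libraries, replicates 3 and 4, was the higher one, and the AKB libraries of SYNGR1 were the most even of the 10 genes with a coefficient of variation of 3.42%. The log2 fold changes of AKB over untreated were 1.30 (SE 0.165) for APOE and 1.16 (SE 0.171) for SYNGR1.

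TRANK1, a large protein with tetratricopeptide and ankyrin repeats, stood at 11.7, 8.89, 9.25 and 11.7 CPM with AKB, at 4.15, 6.07, 5.00 and 5.51 CPM with pyruvate, and at 4.85, 5.2, 3.42 and 5.85 CPM in untreated cells. The pyruvate and untreated libraries overlapped. The log2 fold change was 1.10 (SE 0.181) for AKB over untreated and 1.00 (SE 0.18) for AKB over pyruvate.

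Pyruvate replicates 3 and 4 stood apart from the other 10 libraries along the GC content of the transcripts, and the 10 genes were not spared. Log2 CPM, taken relative to each gene's mean over the 12 libraries, changed by 0.328 and 0.348 per 10 percentage points of GC in these libraries. In the other 10 the slopes were −0.155 to 0.0179, relative to the same mean. Total counts per library ran from 15353200 to 21301073, and the 10 genes had 38 to 692 counts in a library. The longest transcripts of the 10 genes held 45.4% to 68.5% G and C, against a median of 48.1% over the genes tested. In pyruvate replicates 3 and 4 over replicates 1 and 2, the log2 ratio was 0.70 for SYNGR1 and 0.68 for APOE, which has the highest GC content. It was −0.45 for LAPTM5 (50.6% GC) and −0.36 for CD24 (45.8%), whose transcripts are less GC-rich than these. The order did not follow GC content at either end. At the low end the ratio was 0.17 for PAQR8 (45.4%, the lowest) and 0.04 for TRANK1 (49.2%). At the high end it was 0.34 for CORO1A (63%), 0.31 for SPINT1 (60.4%) and 0.08 for EFNA1 (58.5%), all below SYNGR1 (60%). Over the 10 genes this ratio and GC content had a Pearson correlation of 0.75, a description over points that share the same 4 libraries.

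**Figure D2:**
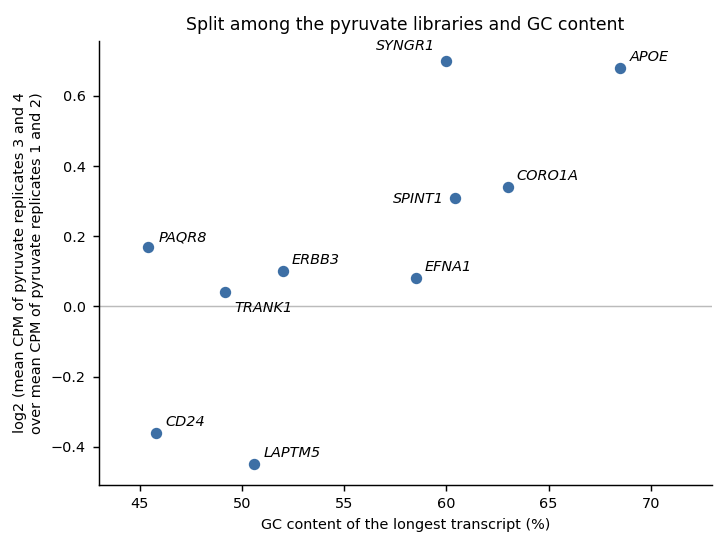
Log2 ratio of the mean CPM in pyruvate replicates 3 and 4 over that in replicates 1 and 2 (vertical axis) against the GC content of the longest transcript in percent (horizontal axis), 1 point per gene. SYNGR1 at 0.70 and APOE at 0.68 lie at the top, and LAPTM5 at −0.45 and CD24 at −0.36 at the bottom left.

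Without pyruvate replicates 3 and 4, APOE differed by a log2 fold change of 0.12 (SE 0.111) for pyruvate over untreated, against 0.49 (SE 0.164) with all libraries, and by 1.19 for AKB over pyruvate, against 0.81. For SYNGR1 the pyruvate estimate was −0.10 without them and 0.29 with them, and AKB over pyruvate was 1.26 without them and 0.87 with them. CORO1A moved likewise to 0.11 for pyruvate over untreated, against 0.29 with all libraries. ERBB3 kept 0.40 (SE 0.209) against 0.45, so its pyruvate difference was nearly as large without these libraries. LAPTM5 and CD24 moved the other way, with 0.97 and 0.83 for AKB over pyruvate, against 1.18 and 1.01. A GC-content offset gave 0.07 for APOE, −0.01 for CORO1A and 0.01 for SYNGR1 for pyruvate over untreated, and left ERBB3 at 0.38.

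**Figure D3:**
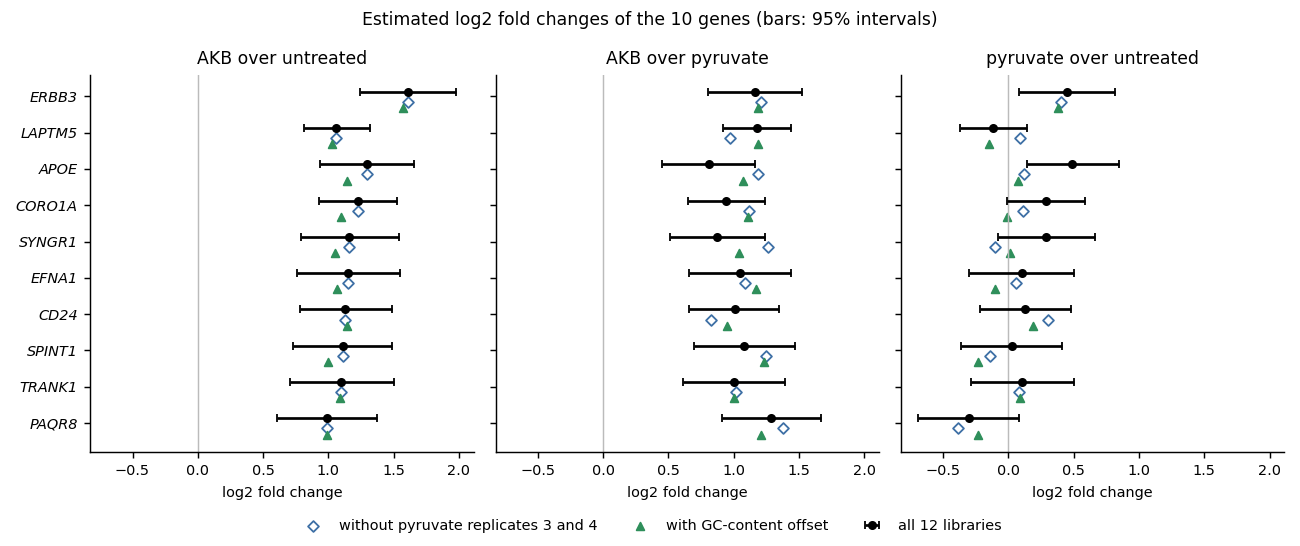
Estimated log2 fold change (horizontal axis) of each gene for AKB over untreated, AKB over pyruvate and pyruvate over untreated, with 95% intervals from all 12 libraries as bars, the estimate without pyruvate replicates 3 and 4 as diamonds and that with a GC-content offset as triangles. AKB over untreated runs from 0.99 to 1.61, and the largest shifts between the symbols are those of APOE and SYNGR1 in the comparisons that use pyruvate.

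Per kilobase of the longest transcript, the 10 genes kept a common order of mean levels in the 3 groups. APOE was the highest, with 31.9 CPM per kb with AKB, 18.2 with pyruvate and 12.9 in untreated cells, and LAPTM5 was second with 15.4, 6.79 and 7.34 CPM per kb. TRANK1 was the lowest, with 0.881, 0.44 and 0.41 CPM per kb in the same groups. Between these ends came CD24, SYNGR1, EFNA1, SPINT1, CORO1A, PAQR8 and ERBB3. In the AKB group the libraries of neighbours from SYNGR1 down to ERBB3 overlapped at each step, so their order there is not resolved. ERBB3 and TRANK1 overlapped in untreated cells (0.372 to 0.52 and 0.29 to 0.497 CPM per kb) and not with AKB.

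Across the 12 libraries each gene followed the mean of the other 9, with Pearson correlations of log2 CPM from 0.893 to 0.974, a description that the choice of the genes largely fixes. Within the AKB group they did not move as a block. AKB replicate 1 was the highest AKB library for 6 genes, LAPTM5, CORO1A, EFNA1, SPINT1, TRANK1 and PAQR8, and the lowest for ERBB3 and APOE. AKB replicate 2 was the lowest for 5 genes, CORO1A, SYNGR1, CD24, SPINT1 and TRANK1.

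Levels from the counts were set beside the authors' deposited table, which puts untreated over AKB, so that its sign is the opposite. For SPINT1 the authors' deposited table gives a log2 fold change of −0.24 (SE 0.308) of untreated over AKB, against 1.11 (SE 0.176) of AKB over untreated from the counts. The counts of SPINT1 do not overlap between these groups. For TRANK1 the authors' deposited table gives −2.57 (SE 0.346), against 1.10 (SE 0.181) from the counts, and a mean normalised signal of 152, against a mean scaled count of 117. For ERBB3 the authors' deposited table gives −1.12 (SE 0.35), against 1.61 from the counts. The other 7 genes differed by at most 0.11 in size. For untreated over pyruvate the authors' deposited table gives −0.92 (SE 0.349) for TRANK1, against 0.10 of pyruvate over untreated from the counts. In the same comparison the authors' deposited table gives 0.62 (SE 0.314) for SPINT1, against 0.03 of pyruvate over untreated from the counts. For ERBB3 the authors' deposited table gives −0.11 (SE 0.356), against 0.45 of pyruvate over untreated from the counts. Over all 13598 genes the median difference was 0.0355, and 279 genes (2.05%) differed by more than 0.5, so SPINT1 and TRANK1 are among a small set whose tables and counts are far apart. The sources used here do not say how the normalised values of the table were made, and the cause was not tested.

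**Figure D4:**
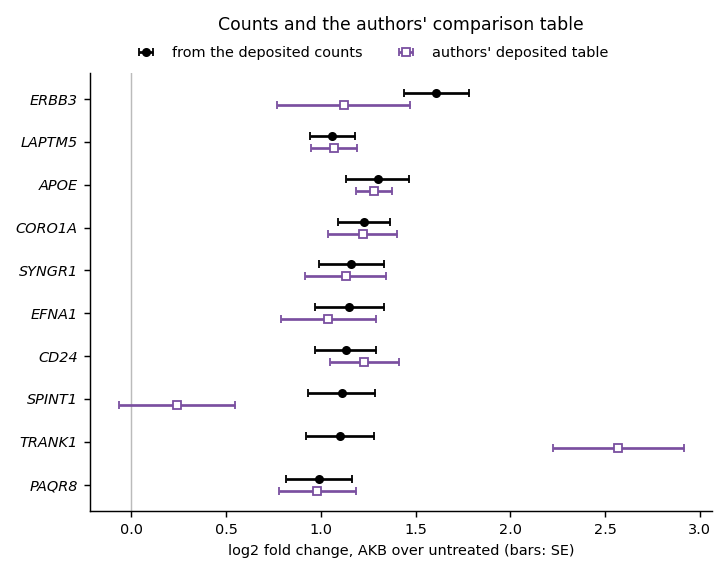
Log2 fold change of AKB over untreated (horizontal axis, bars are SE) from the deposited counts (filled circles) and from the authors' deposited table with its sign turned to AKB over untreated (open squares). The 2 sources lie apart for SPINT1, at 1.11 and 0.24, and for TRANK1, at 1.10 and 2.57.

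Relatives and partners of the 10 genes were not used in the choice of the 10. Their lists were drawn up with earlier results of these data known, so the shares below are a description. The 14 lists held 252 genes, and 170 of them were tested. With AKB over untreated cells 6 were higher (3.53%) and 0 lower by edgeR's quasi-likelihood test with Benjamini-Hochberg adjustment over all genes, against 1.37% higher and 0.603% lower of all genes. DESeq2's Wald test called 11 higher and 0 lower, against 343 higher and 196 lower over all genes. At an edgeR p below 0.05 before adjustment, 31 were higher and 2 were lower. The share of all genes below that p is not given, so unadjusted counts, here and for single lists below, are a description alone. With pyruvate over untreated cells 4 were higher and 1 lower, against 1.02% and 0.927% of all genes. With AKB over pyruvate 7 were higher and 2 lower, against 1.94% and 1.19% of all genes. Without pyruvate replicates 3 and 4, 22 of 174 were higher and 3 lower with AKB over untreated, against 4.86% and 4.31% of all genes. In the same fit 0 were higher and 1 lower with pyruvate over untreated, against 0.151% and 0.56% of all genes, and 9 were higher and 0 lower with AKB over pyruvate, against 2.52% and 1.84%.

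**Figure D5:**
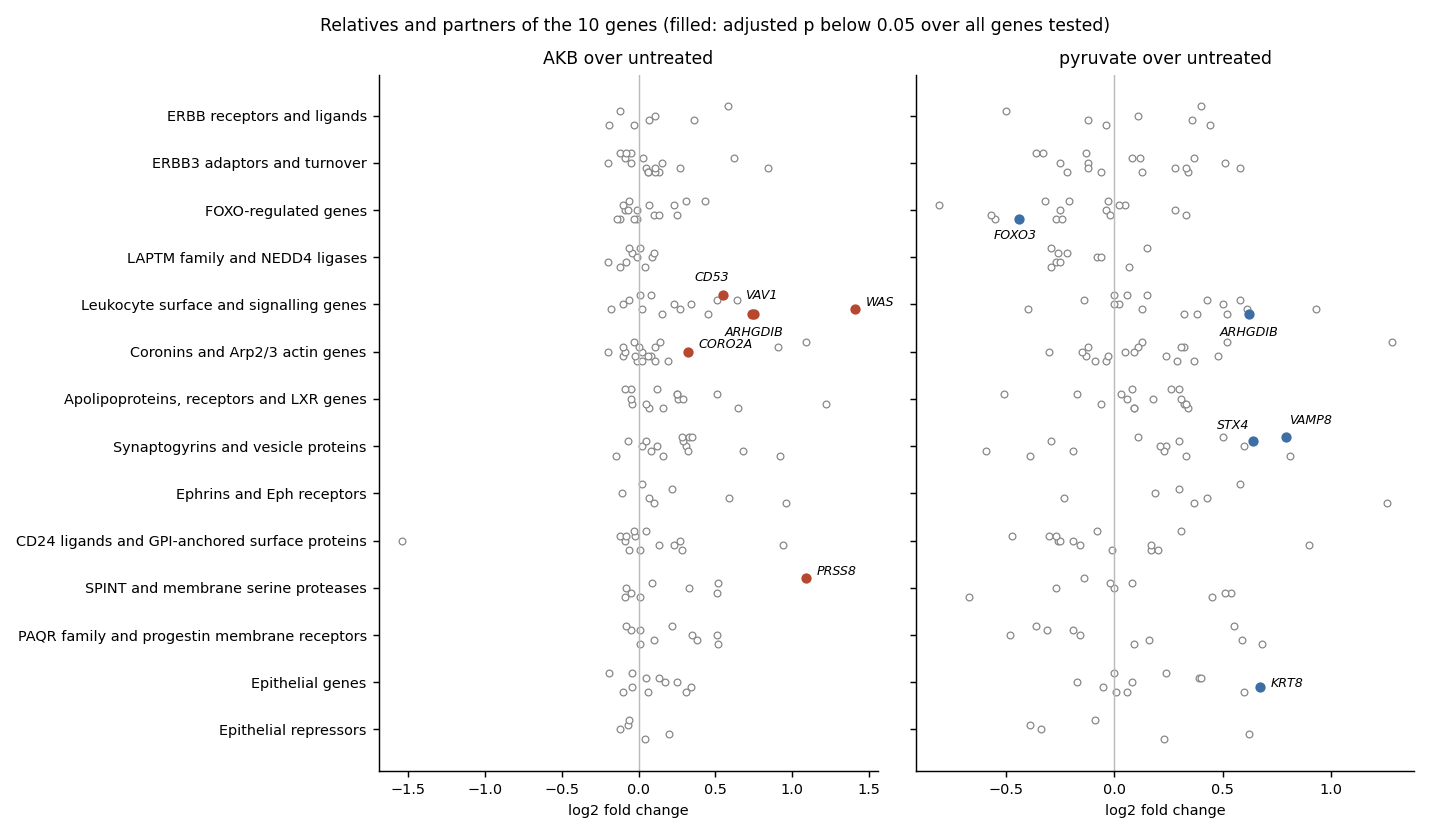
Log2 fold change (horizontal axis) of each tested gene of the 14 lists for AKB over untreated (left) and pyruvate over untreated (right), with genes at an adjusted p below 0.05 filled and named. The filled genes with AKB are WAS, ARHGDIB, VAV1, CD53, CORO2A and PRSS8, 4 of them in the list of leukocyte surface and signalling genes.

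Of the 6 genes higher with AKB, 4 belonged to the list of leukocyte surface and signalling genes, of which 17 were tested and 0 were called lower with all 12 libraries. Without pyruvate replicates 3 and 4, edgeR called 5 of the 17 higher and 1 lower, against 4.86% and 4.31% of all genes. The lower one was PTPRC (−0.18, edgeR adjusted p = 0.0174). WAS, the actin regulator of blood cells that acts on the Arp2/3 complex, stood at 3.02, 4.26, 5.04 and 4.14 CPM with AKB, at 2.25, 2.83, 3.59 and 3.13 CPM with pyruvate, and at 1.60, 1.29, 0.98 and 2.35 CPM in untreated cells. All AKB libraries were above all untreated ones, and the pyruvate libraries overlapped both groups (AKB over untreated 1.41 on the log2 scale, SE 0.265, edgeR adjusted p = 0.0188). VAV1, a signalling protein downstream of antigen receptors in blood cells, was higher with AKB by 0.74 (SE 0.131, edgeR adjusted p = 0.0142), at 13.2 ± 1.54 CPM with AKB and 7.87 ± 1.04 CPM in untreated cells (SD, n = 4 each).

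CD53, a leukocyte tetraspanin, was above both other groups in every AKB library. It averaged 39.8 ± 2.08 CPM with AKB, 27.2 ± 3.75 CPM with pyruvate and 27.1 ± 2.24 CPM in untreated cells (SD, n = 4 each). It was higher with AKB over untreated (0.55, edgeR adjusted p = 0.0146) and with AKB over pyruvate (0.55, edgeR adjusted p = 0.0161). ARHGDIB, a GDP-dissociation inhibitor of small GTPases in blood cells, was higher in both treatments over untreated cells, by 0.75 with AKB (edgeR adjusted p = 0.0208) and by 0.62 with pyruvate (edgeR adjusted p = 0.049).

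These calls lie near the threshold. The call of CD53 over untreated was lost without untreated replicate 2 or 3 (adjusted p by edgeR up to 0.0626) and that over pyruvate without AKB replicate 1 (0.0627), and the call of VAV1 without untreated replicate 1, AKB replicate 1 or AKB replicate 2 (up to 0.0578). WAS lost it in 6 of 12 fits with a library left out (untreated replicates 1 to 3 and AKB replicates 2 to 4, up to 0.0739). ARHGDIB lost it with AKB in 6 (untreated replicates 1 to 3 and AKB replicates 1, 3 and 4, up to 0.0834) and with pyruvate in 9 of 12.

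In the list of coronins and Arp2/3 genes, 1 of 19 tested was higher with AKB over untreated and 0 were lower. That gene was CORO2A, a relative of CORO1A, at 68.3 ± 6.26 CPM with AKB, 58.3 ± 2.50 CPM with pyruvate and 54.8 ± 1.29 CPM in untreated cells (0.32 over untreated, SE 0.07, edgeR adjusted p = 0.0403, lost in 8 of 12 fits with a library left out). CORO1C, the coronin with the highest level, differed by 0.08 (95% interval −0.09 to 0.25). The Arp2/3 subunit ARPC4 was lower with AKB than with pyruvate (−0.34, edgeR adjusted p = 0.0485), and without pyruvate replicates 3 and 4 its adjusted p was 0.118. It was lost in 10 of 12 fits with a library left out.

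Among SPINT1's relatives and the membrane serine proteases, 1 of 9 tested was higher with AKB over untreated. PRSS8, the membrane-anchored protease prostasin, stood at 4.82, 4.08, 5.68 and 4.01 CPM with AKB, at 1.30, 1.80, 2.63 and 2.15 CPM with pyruvate, and at 1.93, 1.90, 2.22 and 2.65 CPM in untreated cells. The AKB libraries were above all others, as in SPINT1. The log2 fold change was 1.09 over untreated (SE 0.218, edgeR adjusted p = 0.0241) and 1.23 over pyruvate (SE 0.219, edgeR adjusted p = 0.0159). The first call was lost in 7 of 12 fits with a library left out (adjusted p by edgeR up to 0.0986), and the second without AKB replicate 1 or 3 (up to 0.0627). SPINT2, the nearest relative of SPINT1, averaged 0.616 CPM with AKB, 0.616 CPM with pyruvate and 0.429 CPM in untreated cells.

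The relatives and ligands of ERBB3 gave no call in any of the 3 comparisons by edgeR, DESeq2 or limma-voom among 7 tested of 13 listed, and none had an unadjusted p below 0.05. ERBB2, its usual partner, averaged 8.76 ± 1.34 CPM with AKB, 8.76 ± 1.70 CPM with pyruvate and 8.14 ± 0.617 CPM in untreated cells (SD, n = 4 each), with a log2 fold change of 0.11 for AKB over untreated (95% interval −0.24 to 0.45). The neuregulin gene NRG1 was at 0.844 CPM with AKB, 1.16 CPM with pyruvate and 0.858 CPM in untreated cells, and EGFR and ERBB4 were not listed in the count table. Of 17 adaptors and turnover factors of ERBB3, 0 were called with AKB over untreated by edgeR (before adjustment, 2 had a p below 0.05 upward and 1 downward, and DESeq2 called 1 higher). PA2G4, which encodes a protein that binds ERBB3, was lower with AKB than with pyruvate (−0.46, edgeR adjusted p = 0.0407, and 0.115 without pyruvate replicates 3 and 4), a call lost in 9 of 12 fits with a library left out. The gene next to it, AC034102.2, overlaps both PA2G4 and the end of ERBB3, and was at 0 in pyruvate replicates 3 and 4 and at 41.0 to 58.5 CPM in the other 10 libraries, and its part in the values of both genes was not tested.

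FOXO factors and genes they induce gave 0 calls of 16 tested with AKB over untreated by edgeR, with 2 higher at an unadjusted p below 0.05 and 1 higher by DESeq2. Without pyruvate replicates 3 and 4 edgeR called 3 of the 16 higher, CITED2 (adjusted p 0.00434), SESN3 (0.0148) and FOXO4 (0.0402). In that fit 4.86% of all genes were called higher. FOXO3 itself was lower with pyruvate than in untreated cells. It stood at 40.7, 39.9, 36.3 and 42.3 CPM with pyruvate and at 55.2, 57.2, 49.9 and 54.4 CPM in untreated cells (−0.44, SE 0.067, edgeR adjusted p = 0.00886), against 49.9 ± 1.62 CPM with AKB. This was the only one of the 5 calls of pyruvate over untreated in the 14 lists that was also made without pyruvate replicates 3 and 4 (−0.42, edgeR adjusted p = 0.0113). It was lost without untreated replicate 1 or 2 (up to 0.0571). The stress sensor SESN3 was higher with AKB than with pyruvate, at 11.5 ± 0.956 CPM with AKB and 6.86 ± 1.84 CPM with pyruvate (0.75, edgeR adjusted p = 0.042). The call was lost in 10 of 12 fits with a library left out (adjusted p by edgeR up to 0.11), and without pyruvate replicates 3 and 4 the log2 fold change was 0.47 (edgeR adjusted p = 0.0425).

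In the family of PAQR8, PAQR9, a further membrane progestin receptor, stood at 4.50, 4.82, 4.86 and 4.01 CPM with AKB, at 2.55, 1.68, 2.58 and 2.33 CPM with pyruvate, and at 3.14, 3.18, 3.15 and 3.32 CPM in untreated cells. The 3 groups did not overlap, with untreated cells between AKB above and pyruvate below, and PAQR8 had the same order of group means. AKB over pyruvate was 0.99 (SE 0.155, edgeR adjusted p = 0.00993) and the call was kept in all 12 fits with a library left out. AKB over untreated was 0.51 (edgeR adjusted p = 0.138). MMD, a PAQR family gene of monocytes and macrophages, was also higher with AKB than with pyruvate (0.51, edgeR adjusted p = 0.0476, and 0.12 without pyruvate replicates 3 and 4), a call lost in 10 of 12 fits with a library left out. ADIPOR2, an adiponectin receptor and the PAQR family member with the highest level, averaged 139 ± 7.74 CPM with AKB, 146 ± 9.26 CPM with pyruvate and 130.2 ± 3.97 CPM in untreated cells. With AKB over untreated, edgeR called 0 of the 10 tested, with 2 higher at an unadjusted p below 0.05 and 0 by DESeq2.

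Of 15 synaptogyrins and vesicle proteins, edgeR called 0 with AKB over untreated (3 higher at an unadjusted p below 0.05, 0 by DESeq2). SYNGR2, the synaptogyrin with the highest level, averaged 152 ± 7.80 CPM with AKB, 176 ± 31.0 CPM with pyruvate and 150 ± 15.8 CPM in untreated cells. The membrane fusion genes STX4 (0.64) and VAMP8 (0.79) were higher with pyruvate over untreated (edgeR adjusted p = 0.0472 for each), and both sat highest in pyruvate replicates 3 and 4, at 24.8 and 24.6 CPM for STX4 and 48.4 and 44.2 CPM for VAMP8. Without these libraries the adjusted p was 0.226 for STX4 and 0.207 for VAMP8. With each library left out in turn, the call was lost in 9 of 12 fits for STX4 and in 10 for VAMP8. SV2A was higher with AKB than with pyruvate (1.27, edgeR adjusted p = 0.0485, and 0.135 without pyruvate replicates 3 and 4), at 0.815 CPM with AKB and 0.335 CPM with pyruvate, a call lost in 10 of 12 such fits.

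Of 15 apolipoprotein, lipoprotein receptor and liver X receptor genes, edgeR called 0 with AKB over untreated, with 5 higher at an unadjusted p below 0.05 and 1 higher by DESeq2. SCARB1, the HDL receptor and the highest of them, averaged 170 ± 5.08 CPM with AKB, 172 ± 28.9 CPM with pyruvate and 139 ± 6.31 CPM in untreated cells. Without pyruvate replicates 3 and 4 edgeR called 4 of the 15 higher with AKB over untreated, APOC1, SCARB1, LRP8 and MYLIP. In that fit 4.86% of all genes were called higher. APOC1, which like APOE encodes an apolipoprotein, stood at 25.3, 27.3, 28.2 and 20.8 CPM with AKB, at 14.2, 13.2, 27.1 and 27.3 CPM with pyruvate, and at 17.7, 15.4, 14.9 and 16.7 CPM in untreated cells. Its pyruvate libraries split into the same pairs as those of APOE.

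In the lists around LAPTM5, EFNA1 and CD24 edgeR made no call in any of the 3 comparisons with all 12 libraries. Among 10 LAPTM family and NEDD4 ligase genes edgeR called 0 with AKB over untreated (1 lower at an unadjusted p below 0.05, 0 by DESeq2), and LAPTM4B, the highest of them, averaged 314 ± 23.0 CPM with AKB, 270 ± 34 CPM with pyruvate and 324 ± 17.8 CPM in untreated cells. Among 7 ephrins and Eph receptors it called 0 (2 higher at an unadjusted p below 0.05, 0 by DESeq2), and the receptor EPHB4 averaged 97.4 ± 6.90 CPM with AKB, 118 ± 31.15 CPM with pyruvate and 91.1 ± 7.55 CPM in untreated cells. Among 14 CD24 ligands and lipid-anchored surface proteins it called 0 (2 higher at an unadjusted p below 0.05, 0 by DESeq2), and the complement inhibitor CD59, the highest of them, differed by −0.03 (95% interval −0.20 to 0.13). With pyruvate over untreated, 5 of the 10 LAPTM and NEDD4 genes were lower at an unadjusted p below 0.05 (2 by DESeq2), and of the 14 genes around CD24 4 were lower and 1 higher (3 lower by DESeq2). For the ephrins and Eph receptors 2 were higher before adjustment (1 by DESeq2). Such counts were frequent in this comparison. They are a description alone, since the share of all genes below that unadjusted p is not given. Over the 14 lists, 39 of 170 genes were higher and 25 lower before adjustment, and DESeq2 called 1119 higher and 745 lower over all genes. Without pyruvate replicates 3 and 4 edgeR called the ubiquitin ligase gene NEDD4 lower (−0.20, edgeR adjusted p = 0.00714) and the surface protein gene BST2 higher (0.27, edgeR adjusted p = 0.00177) with AKB over untreated, and none of the 3 lists had a call with pyruvate over untreated. In that fit 4.86% of all genes were higher and 4.31% lower with AKB over untreated.

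SPINT1, ERBB3, CD24 and PRSS8 are also known from epithelia. Of 11 epithelial genes tested, edgeR called 0 with AKB over untreated (1 higher at an unadjusted p below 0.05, 0 by DESeq2). The 20 genes of the epithelial list that are in the count table, tested or not, summed to 987 to 1129 CPM with AKB, 1063 to 1449 CPM with pyruvate and 968 to 1088 CPM in untreated cells, with the ranges of AKB and untreated cells overlapping. The keratin gene KRT8 was higher with pyruvate over untreated (0.67, edgeR adjusted p = 0.0404), and without pyruvate replicates 3 and 4 its adjusted p was 0.146 (lost in 9 of 12 fits with a library left out). Of 5 tested repressors of epithelial genes edgeR and DESeq2 called 0 with AKB over untreated and none had an unadjusted p below 0.05, with ZEB2 at 108 ± 4.46 CPM with AKB and 112 ± 3.73 CPM in untreated cells.

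Erythroid markers of K562 were all listed in the count table, with summed levels of 15990 to 17760 CPM with AKB, 12520 to 13900 CPM with pyruvate and 14640 to 16300 CPM in untreated cells. Of these 12, edgeR called 3 lower and 0 higher with pyruvate over untreated, against 0.927% and 1.02% of all genes. With AKB over pyruvate 2 were higher and 0 lower, against 1.94% and 1.19%. Without pyruvate replicates 3 and 4, 1 was lower with pyruvate over untreated (0.56% of all genes). In that fit 3 were higher with AKB over pyruvate (2.52%). Lymphocyte markers, 5 of 9 listed in the table, summed to 4.57 to 5.56 CPM with AKB, 4.38 to 4.95 CPM with pyruvate and 3.04 to 3.86 CPM in untreated cells. The 2 lymphocyte markers tested had a median log2 fold change of 0.65 for AKB over untreated and 0.43 for pyruvate over untreated. Myeloid markers, 6 of 10 listed, summed to 67.7 to 77.0 CPM with AKB, 50 to 54.2 CPM with pyruvate and 45.5 to 53.9 CPM in untreated cells. This rested on LYZ, at 47.2 ± 4.97 CPM with AKB, 30.9 ± 3.76 CPM with pyruvate and 33.5 ± 2.86 CPM in untreated cells, and on CD68, at 24.0 ± 2.17, 19.9 ± 2.23 and 15.7 ± 3.25 CPM in the same groups. The myeloid markers CD14, CSF1R and ITGAM were below 0.45 CPM on average in every group. Of the markers tested, edgeR called 1 of 12 erythroid, 0 of 2 lymphocyte (2 higher at an unadjusted p below 0.05, 0 by DESeq2) and 2 of 2 myeloid genes higher with AKB over untreated, against 1.37% of all genes. The call of LYZ (edgeR adjusted p = 0.0308) was lost in 7 of 12 fits with a library left out (up to 0.104). That of CD68 (edgeR adjusted p = 0.0441) was lost in 9 of 12 (up to 0.151). The myeloid sum was higher with AKB than in untreated cells. The leukocyte genes called above were picked out as higher with AKB, so their direction cannot be set beside this sum. The part of the markers in the results was not tested.

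By the values that describe the 10, 15 genes had a log2 fold change of at least 0.99 for AKB over untreated, at most 0.49 for pyruvate over untreated and a mean of at least 3.97 CPM. The other 5 were GGT1, FCGR2C, UBE2L6, CTSS and the identifier ENSG00000275079. UBE2L6, the ISG15-conjugating enzyme, averaged 8.23 ± 1.52 CPM with AKB, 3.57 ± 0.827 CPM with pyruvate and 3.96 ± 0.411 CPM in untreated cells. CTSS, the lysosomal protease cathepsin S, averaged 9.07 ± 0.997 CPM with AKB, 5.32 ± 1.13 CPM with pyruvate and 4.54 ± 0.784 CPM in untreated cells. GGT1 and FCGR2C have near-identical relatives, so their shares of reads are uncertain, and the identifier ENSG00000275079 ranged from 0 to 21.4 CPM within the untreated group.

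The genes outside the 10 whose log2 CPM over the 12 libraries was most like the mean of the 10 were NAV1 (Pearson correlation 0.972), PPP1R16B (0.967), ENO2 (0.965), RASSF5 (0.963) and PTPRF (0.961). NAV1 averaged 55.9 ± 2.36 CPM with AKB, 38.6 ± 2.54 CPM with pyruvate and 38.4 ± 0.251 CPM in untreated cells (SD, n = 4 each). PPP1R16B averaged 19.2 ± 1.25 CPM with AKB, 10.8 ± 0.946 CPM with pyruvate and 9.93 ± 0.784 CPM in untreated cells. Their ratios were smaller than those of the 10 genes, with log2 fold changes of AKB over untreated from 0.39 for RASSF5 to 0.95 for PPP1R16B.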

How the data were processed

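Poly(A)-selected RNA of 12 libraries was sequenced, per the labels' protocols, and the groups and replicate numbers come from the titles. Tools listed in the submitters' processing notes, with no role given, are Salmon (1.2.1), DESeq2 (1.26.0) and R (3.6.3). Genome build, annotation and strandedness go unnamed in the labels and file headers. The deposited expected counts per gene are whole numbers, and rounding changed 0 values. The authors' 3 deposited comparison tables give a mean normalised signal, a log2 fold change with its SE, a test score and p-values, per the file headers. Of these, the signal, log2 fold change and SE of the authors are quoted, and their score and p-values are not.

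Genes were kept by filterByExpr with a minimum count of 10, which left 13598. After TMM scaling, a quasi-likelihood model in edgeR 4.0.16 (R 4.3.3) took all 12 libraries, each group having its own coefficient. Adjusted p-values are Benjamini-Hochberg over all genes tested, with calls below 0.05, and SE is the size of the log2 fold change over the square root of F. The script was tested on simulated data. Alternatives used limma 3.58.1 and DESeq2 1.42.0. Symbols were matched for 16933 identifiers (95.2%), and GC content and lengths are those of the longest GENCODE 29 transcript. The members and lists were chosen with earlier results of these data known. Beside the 10 genes, the text names, by rule, list members called in a comparison, the highest member where none was called or of a family, genes meeting the description of the 10 and the genes most like them. APOC1, LRP8, MYLIP, CITED2, FOXO4, NEDD4, BST2, PTPRC, NRG1, AC034102.2 and the marker genes were named after their values were seen. The replicate numbers did not pair the samples.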

Additional observations from a re-analysis of the deposited data

Results flagged for a closer look

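EFNA1 stood at 8.04 CPM in AKB replicate 1, against 5.43 to 5.68 CPM in the other AKB libraries. Its gap to the nearest of them was 0.905 of the range of the group, above Dixon's 95% critical value for 4 samples. This was 1 of 78 groups of 4 libraries examined, and chance flags about 1 in 20. Without that library the log2 fold change of AKB over untreated was 1.00, against 1.15 with it, and that of AKB over pyruvate was 0.89, against 1.05 with it.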

How the results depend on the processing

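The log2 fold changes of the 10 genes kept their direction for AKB over untreated and AKB over pyruvate in every alternative run, with medians of 1.08 to 1.19 and 0.96 to 1.15. For AKB over pyruvate the median of the 10 was 1.15 without pyruvate replicates 3 and 4 and 1.14 with a GC-content offset, against 1.03, and for pyruvate over untreated it was 0.00 with the offset, against 0.12. Counts of genes called depended far more on the processing, and the cause was not tested. With all 12 libraries, edgeR called 268 genes for AKB over untreated, 265 for pyruvate over untreated and 426 for AKB over pyruvate. For AKB over untreated the other counts were 539 by DESeq2's Wald test, 1339 with the 8 libraries of the comparison alone, 1182 with the GC-content offset, 1278 without pyruvate replicates 3 and 4, and 92 to 357 with each library left out. For pyruvate over untreated they were 152 without a filter, 1864 by DESeq2, 16 with 8 libraries, 1250 with the offset, 99 without pyruvate replicates 3 and 4, and 32 (without untreated replicate 2) to 3611 (without pyruvate replicate 2). For AKB over pyruvate they were 214 without a filter, 1541 by DESeq2, 6 with 8 libraries, 2027 with the offset, and 68 (without AKB replicate 1) to 2111 (without pyruvate replicate 2). Of AKB over pyruvate, 247 were higher and 214 lower with DESeq2's size factors, and 311 and 93 with library size alone, against 264 and 162.

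Of the family and partner genes, the 6 calls for AKB over untreated became 11 by DESeq2, 26 with 8 libraries, 19 with the offset, 25 without pyruvate replicates 3 and 4, and 1 (without untreated replicate 1, 2 or 3) to 7 with each library left out. The 5 calls for pyruvate over untreated became 2 without a filter, 32 by DESeq2, 3 by limma-voom, 0 with 8 libraries, 18 with the offset, 1 without pyruvate replicates 3 and 4, and 0 (without untreated replicate 1 or 2) to 61 (without pyruvate replicate 2). The 9 calls for AKB over pyruvate became 5 without a filter, 23 by DESeq2, 0 with 8 libraries, 29 with the offset, and 1 (without AKB replicate 1) to 31 (without pyruvate replicate 2).

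With the replicate number as a block, edgeR called 158 genes for AKB over untreated and 565 for pyruvate over untreated, with 12 family and partner genes in the latter comparison. Same-numbered libraries had correlations of −0.157 to 0.292 after removal of group means, so the numbers were not read as a pairing.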
